A study of Mus musculus with 6 samples.

Results

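The genes described here are the transcriptional end of the Hippo pathway: the coactivators *Yap1* (YAP) and *Wwtr1* (TAZ), the DNA-binding partners *Tead1*, *Tead2*, *Tead3* and *Tead4*, the kinases *Lats1* and *Lats2*, and *Ankrd1* and *Amotl2*, a pair of widely used YAP/TAZ target genes. They were listed by name, for their place in the pathway, with earlier results of these data known. All 10 of the 10 listed symbols were matched to a measured gene, out of 14548 genes in all, and all 10 entered the test, which covered the 10837 genes that reached 1 FPKM in some library. FPKM counts the fragments on a gene per kilobase of its exons and per 1000000 mapped fragments, a level scaled for gene length and library size.

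RNA-seq was done on mouse C2C12 cells, an established myoblast line, as 3 wild-type (WT) libraries and 3 libraries of cells in which myostatin was knocked out (MSTN-KO). Myostatin is a secreted inhibitor of muscle growth, and the comparison asks how its loss changes the transcriptome of these cells. Both groups carried the cell type label myoblasts, and the study's methods describe growth in DMEM with fetal bovine serum, with no further agent named in the labels. The MSTN-KO cells are 1 line, C11, made by electroporating a plasmid with Cas9 and a guide RNA against exon 3 of *Mstn*, so that whatever sets this line apart from the WT culture cannot be told apart from the loss of myostatin. The strain label reads C11 for both groups. Nothing says that the 3 libraries of a group came from separate cultures, so p-values measure the spread between these libraries, which may be technical.

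In the Hippo pathway the MST kinases with their adaptor SAV1, and in parallel the MAP4K kinases, activate LATS1 and LATS2, which phosphorylate YAP and TAZ so that they stay in the cytoplasm and are degraded. Unphosphorylated YAP and TAZ enter the nucleus and bind the TEAD factors, which sit on DNA at the M-CAT sequence, named for muscle genes in which it was first described. In myoblasts YAP is known for promoting proliferation and for holding back differentiation. Because the pathway works largely through phosphorylation and localization, mRNA levels describe the supply of its components and the output of its target genes, not the activity of the kinases.

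The core of the M-CAT sequence, CATTCC, which reads as GGAATG on the opposite strand, was looked for on both strands of the RefSeq promoters of these genes (assembly GRCm38.p6), each running from 250 bases before to 50 after an annotated start. Of the 10 genes, 8 had a promoter entry, and 6 of these 8 held the 6 bases in at least 1 promoter, against 4481 of 27025 genes (16.6%) in the whole table. Counted by promoter rather than by gene, 8 of 12 promoters (66.7%) held it, against 4817 of 32851 (14.7%). These promoters are not independent: windows of *Tead3* overlap, and both windows of *Wwtr1* hold the same core, which is counted in each. *Yap1*, *Wwtr1*, *Tead3*, *Lats2*, *Ankrd1* and *Amotl2* had a match, and *Tead2* and *Lats1* had none in this window. *Tead1* and *Tead4* had no entry. *Ankrd1*, *Amotl2* and *Lats2* are known YAP/TAZ target genes, so the 10 are not a neutral sample of genes for this count. The 8 genes also had 12 promoters, against 32851 for 27025 genes, and more promoters per gene give more places for a match. The windows below are shown because they carry the TEAD core at the genes whose levels are compared next, and at *Ccn1*, another YAP/TAZ target. Each runs 5′ to 3′ on the strand of its gene, with the core in capitals:
Ankrd1, chr19:36120037-36120066, minus strand: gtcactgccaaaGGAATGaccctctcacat
Ankrd1, chr19:36119950-36119979, minus strand: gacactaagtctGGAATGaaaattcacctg
Amotl2, chr9:102717727-102717756, plus strand: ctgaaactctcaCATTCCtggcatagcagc
Lats2, chr14:57746102-57746131, minus strand: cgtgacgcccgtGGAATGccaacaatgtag
Yap1, chr9:8004720-8004749, minus strand: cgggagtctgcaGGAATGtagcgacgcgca
Wwtr1, chr3:57576029-57576058, minus strand: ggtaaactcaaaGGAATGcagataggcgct
Tead3, chr17:28350970-28350999, minus strand: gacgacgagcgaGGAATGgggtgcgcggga
Ccn1, chr3:145650071-145650100, minus strand: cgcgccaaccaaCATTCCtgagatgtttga

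Counted from the RefSeq start of its promoter, the core began at -210 and -123 in *Ankrd1*, at -65 in *Amotl2*, at -141 in *Yap1*, at -136 in *Wwtr1*, at -103 in *Ccn1* and at 5 bases after the start in *Lats2*. *Tead3* held it 4 times over its promoters, at -182, -123, -114 and 3. By the GENCODE M21 annotation of GRCm38 the cores of *Yap1*, *Wwtr1* and *Ccn1* and the first of *Tead3* lay outside every transcript of their gene. Both cores of *Ankrd1* lay in a 5′ UTR exon of 1 of its 6 transcripts, that of *Amotl2* in a 5′ UTR exon of 2 and an intron of 3 of its 14 transcripts, and that of *Lats2* in a 5′ UTR exon of 2 and an intron of 2 of its 9 transcripts. A match of 6 bases is a description of the sequence, not evidence that a TEAD factor was bound there.

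The libraries held 13151 to 13478 genes above 0 FPKM, and the FPKM of a library summed to 723705 to 764524 in WT and to 856314 to 999579 in MSTN-KO. *Mstn* itself was at most 0.0586 FPKM in any library of either group, so its level gives no check of the labels. The myoblast markers *Myod1*, *Myf5* and *Des* were all present in every library, with a summed level of 713 to 988 FPKM in WT and 430 to 522 FPKM in MSTN-KO. *Des* and *Myod1* carried this sum, whereas *Myf5* was at 11.3 ± 1.59 FPKM in WT and 12.1 ± 2.61 FPKM in MSTN-KO (SD, n = 3 each), with overlap (log2 fold change 0.077, limma, adjusted p = 0.784). All 7 of 7 genes of the differentiated muscle list were called lower in MSTN-KO (limma, adjusted p under 0.05), beside 8.96% of all genes tested. Their summed level was 198 to 731 FPKM in WT and 29.6 to 49.6 FPKM in MSTN-KO. WT replicate 3 had the lowest WT value of all 7, at 47.3 FPKM of *Myog* against 175.3 and 147.6 FPKM in the other WT libraries. *Ckm* and *Myh3* were under 1 FPKM in every MSTN-KO library and entered the test only through WT. All 4 endothelial markers stayed at or under 0.0581 FPKM, and the measured markers of epithelium (2 of 4) and fat cells (1 of 4) at or under 0.421 FPKM. The leukocyte markers (2 of 4 measured, led by *Cd68*) summed to 0.727 to 2.45 FPKM and the fibroblast markers (3 of 5 measured) to 10.4 to 18.7 FPKM. In bulk samples fewer cells of a type and less RNA per cell cannot be told apart. MSTN-KO replicate 3 stood apart by gene length: Spearman's rho between length and the deviation of a gene from its mean was -0.402 there, across 10784 genes, which are not independent replicates, against -0.0427 to 0.247 in the other 5 libraries.

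Of the 10 genes, *Lats2* and *Ankrd1* fell and *Amotl2* rose in MSTN-KO (limma on log2(FPKM + 1), Benjamini-Hochberg adjusted p under 0.05), and the other 7 were not called. Over all 10837 genes tested, 8.96% were called lower and 8.78% higher, so that 2 and 1 of 10 are shares near the background. Without MSTN-KO replicate 3, which stood apart by gene length, 0 of the 10 were called lower in limma (3 at an unadjusted p under 0.05) and *Amotl2* was still called higher. The same held without WT replicate 2 and without WT replicate 3. Over all 10837 genes, fewer were called lower in these fits too, against 971 with all libraries. There were 724 without MSTN-KO replicate 3, 611 without WT replicate 2 and 806 without WT replicate 3, so the count among the 10 is not particular to them. With gene length and GC content corrected for, 3 were called lower (*Lats2*, *Ankrd1* and *Tead2*), where 1344 of 10837 genes were called lower over all. The groups did not overlap in 3 genes that were lower in MSTN-KO (*Tead2*, *Lats2*, *Ankrd1*) and in 1 that was higher (*Amotl2*), where 18.1% and 19.3% of all genes tested did not overlap in these directions. None of the 10 met the rule of an unadjusted p under 0.05 with a log2 fold change above 1 or below -1, which 3.51% of all genes met, although 4 had an unadjusted p under 0.05 in limma. The median log2 fold change of the 10 was -0.133, against -0.000781 over all genes tested. With 3 libraries against 3, the smallest p of an exact two-sided permutation test is 0.1.

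**Figure D1:**
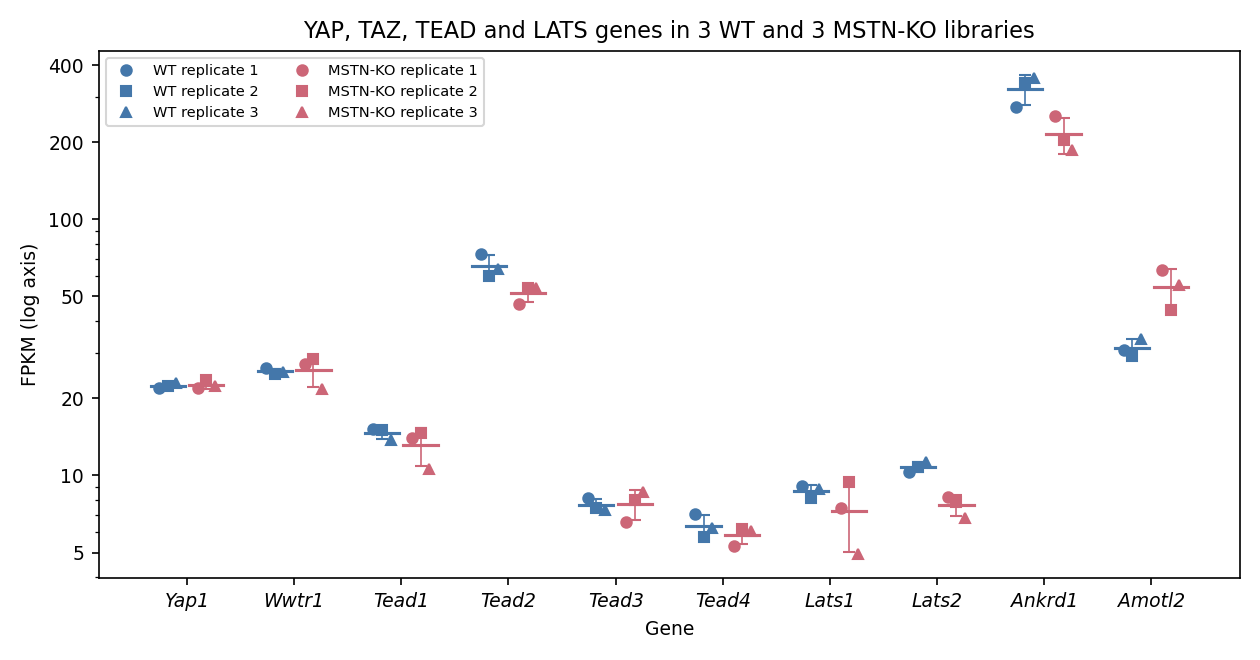
Level of each of the 10 genes in FPKM (log axis) in the 3 WT libraries (blue) and the 3 MSTN-KO libraries (red); each point is 1 library, the horizontal bar is the group mean and the error bar is 1 SD. The MSTN-KO points lie below all WT points for *Tead2*, *Lats2* and *Ankrd1* and above them for *Amotl2*, and the groups overlap for the other 6 genes.

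The coactivators kept nearly equal levels in both groups. *Yap1* (ENSMUSG00000053110, chromosome 9, 7931999 to 8004596, minus strand, GRCm38 as for all positions of genes here) was at 21.9, 22.4 and 23.0 FPKM in WT and at 21.9, 23.5 and 22.4 FPKM in MSTN-KO. All 6 libraries lay between 21.9 and 23.5 FPKM, and the groups overlapped. The means were 22.4 ± 0.548 and 22.6 ± 0.791 FPKM (SD, n = 3 each), and the log2 fold change was 0.0105 with an SE of 0.122 (limma, adjusted p = 0.964). *Wwtr1* (ENSMUSG00000027803, chromosome 3, 57455649 to 57575910, minus strand) was at 26.2, 25.0 and 25.3 FPKM in WT and at 27.2, 28.6 and 21.7 FPKM in MSTN-KO. MSTN-KO replicate 3 was the lowest library and replicate 2 the highest, so the groups overlapped, with a log2 fold change of 0.0087 and an SE of 0.136 (limma, adjusted p = 0.973). The 95% interval of the log2 difference ran from -0.252 to 0.273 for *Yap1* and from -0.286 to 0.303 for *Wwtr1*. Both values lie so near 0 that their sign changes with the scaling of the libraries. The annotation holds transcripts on the opposite strand of *Yap1* (*Gm20416*, over 11167 bases) and of *Tead1* (*2310014F06Rik*, over 764 bases), and neither is among the measured genes. Since it is not stated whether counting used the strand, their fragments cannot be told apart from those of *Yap1* and *Tead1*.

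Summed, *Yap1* and *Wwtr1* stood at 47.9 ± 0.459 FPKM in WT and at 48.4 ± 4.05 FPKM in MSTN-KO (SD, n = 3 each). Their log2 ratio, *Yap1* over *Wwtr1*, was -0.256, -0.163 and -0.134 in WT and -0.313, -0.285 and 0.0505 in MSTN-KO. The sign turned only in MSTN-KO replicate 3, the library that stood apart by gene length, and the mean ratios differed by 0.00229 (exact permutation test, two-sided p = 1.0, and 1.0 after adjustment over the 3 ratios tested).

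*Tead2* was the main TEAD transcript of these cells. It made up 70.7%, 68.1% and 70.0% of the summed FPKM of the 4 TEAD genes in WT and 64.5%, 65.1% and 68.1% in MSTN-KO. The sum itself was lower in every MSTN-KO library, at 72.7, 82.7 and 79.3 FPKM against 104, 88.5 and 91.4 FPKM in WT. *Tead2* (ENSMUSG00000030796, chromosome 7, 45215753 to 45233644, plus strand) was at 73.3, 60.3 and 63.9 FPKM in WT and at 46.8, 53.8 and 54.0 FPKM in MSTN-KO. All 3 MSTN-KO libraries lay below all 3 WT libraries, with means of 51.6 ± 4.1 and 65.8 ± 6.7 FPKM (SD, n = 3 each), a ratio of 0.784. The log2 fold change was -0.344 with an SE of 0.128 and a 95% interval from -0.62 to -0.0682, which missed the threshold after adjustment (limma, adjusted p = 0.0799). It passed under 6 of the 17 alternatives, all of them other scalings or corrections of the libraries, among them quantile normalization (limma, adjusted p = 0.025) and the correction for length and GC content (limma, adjusted p = 0.0112), and under none of the 6 fits that left out a library.

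The other TEAD genes were expressed at a lower level and none was called. *Tead1* (ENSMUSG00000055320, chromosome 7, 112679318 to 112906807, plus strand), a TEAD factor widely expressed in muscle, was at 15.2, 15.0 and 13.8 FPKM in WT and at 14.0, 14.7 and 10.6 FPKM in MSTN-KO. The lowest value was again that of MSTN-KO replicate 3, and the groups overlapped (log2 fold change -0.168, SE 0.149, limma, adjusted p = 0.457). Without MSTN-KO replicate 3 the log2 fold change was -0.0329, and without MSTN-KO replicate 2 it was -0.254. *Tead3* (ENSMUSG00000002249, chromosome 17, 28331671 to 28350817, minus strand) was at 8.13, 7.44 and 7.36 FPKM in WT and at 6.56, 8.03 and 8.63 FPKM in MSTN-KO. Its MSTN-KO libraries held both the lowest and the highest of the 6 values, and the log2 fold change was 0.0098 with an SE of 0.148 (limma, adjusted p = 0.972), a value whose sign changes with the scaling. *Tead4* (ENSMUSG00000030353, chromosome 6, 128224288 to 128300823, minus strand), known as a TEAD gene that MyoD activates during muscle differentiation, had the lowest mean of the 10 genes in both groups. It was at 7.06, 5.74 and 6.25 FPKM in WT and at 5.32, 6.16 and 6.09 FPKM in MSTN-KO. The groups overlapped (log2 fold change -0.0983, SE 0.147, limma, adjusted p = 0.68). The 95% intervals of the log2 difference ran from -0.49 to 0.153 for *Tead1*, from -0.309 to 0.329 for *Tead3* and from -0.416 to 0.219 for *Tead4*, so that a change of the size seen for *Tead2* lies inside the intervals of *Tead1* and *Tead4*.

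The share of *Tead4* in the TEAD sum was 6.82%, 6.49% and 6.84% in WT and 7.32%, 7.44% and 7.68% in MSTN-KO. Every MSTN-KO library had the larger share, with means of 7.48% ± 0.182 and 6.71% ± 0.197 (SD, n = 3 each), a difference of 0.769 percentage points (exact permutation test, two-sided p = 0.1, the smallest possible, and 0.3 after adjustment over 3 ratios). *Tead3* moved the same way, from 7.84%, 8.41% and 8.05% in WT to 9.02%, 9.71% and 10.9% in MSTN-KO, without overlap. This ratio was computed after its values were seen, and has no test. The shares sum to 100%, so a smaller share of *Tead2* raises the others without any change in their own level. The share of *Tead1* overlapped between the groups, at 14.7%, 17.0% and 15.2% in WT and 19.2%, 17.8% and 13.3% in MSTN-KO.

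**Figure D2:**
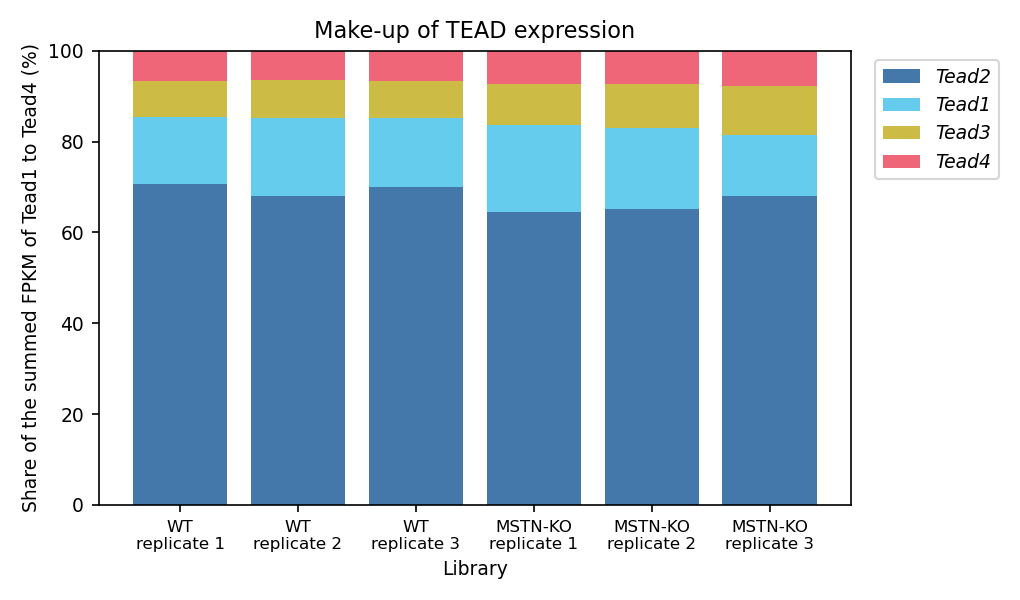
Share of each TEAD gene in the summed FPKM of *Tead1* to *Tead4* (percent, linear axis from 0) in each of the 6 libraries. *Tead2* takes 64.5% to 70.7% of the sum in every library, and the shares of *Tead3* and *Tead4* are larger in all 3 MSTN-KO libraries than in any WT library.

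Of the kinases that act on YAP and TAZ, *Lats2* was called and *Lats1* was not, and the difference between them was within the spread of the libraries. *Lats2* (ENSMUSG00000021959, chromosome 14, 57689662 to 57758388, minus strand), itself a known target gene of YAP and TAZ through which the pathway feeds back, was at 10.3, 10.8 and 11.3 FPKM in WT and at 8.25, 7.87 and 6.83 FPKM in MSTN-KO. No MSTN-KO library reached the lowest WT library, and the means were 10.8 ± 0.477 and 7.65 ± 0.737 FPKM (SD, n = 3 each), a ratio of 0.707. The log2 fold change was -0.453 with an SE of 0.139 and a 95% interval from -0.753 to -0.153 (limma, adjusted p = 0.0391). The call is a narrow one: it was lost in 11 of 17 alternatives, including every fit that left out 1 library (log2 fold change -0.503 to -0.383, limma, adjusted p 0.0529 to 0.142). The 367 tested genes of chromosome 14 had a median log2 fold change of -0.287, and with the median of each chromosome subtracted *Lats2* stood at -0.17 (limma, adjusted p = 0.404). In GENCODE M21 *Lats2* overlaps *Gm49361*, a gene on the same strand, for 56442 bases. *Gm49361* is not among the measured genes, so how fragments of the shared part were assigned cannot be seen.

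*Lats1* (ENSMUSG00000040021, chromosome 10, 7681214 to 7716460, plus strand) was at 9.08, 8.18 and 8.88 FPKM in WT and at 7.47, 9.4 and 4.94 FPKM in MSTN-KO. MSTN-KO replicate 2 was the highest of the 6 libraries and replicate 3 the lowest, with a coefficient of variation of 30.7% in MSTN-KO, so the groups overlapped. The log2 fold change was -0.268 with an SE of 0.188 and a 95% interval from -0.675 to 0.139 (limma, adjusted p = 0.345). Single libraries moved it far: it was -0.0486 without MSTN-KO replicate 3 and -0.452 without MSTN-KO replicate 2, and was called in neither. The interval contains the value of *Lats2*, and a p that misses the threshold does not show that *Lats1* was the same in both groups. The log2 ratio of *Lats1* over *Lats2* was -0.187, -0.403 and -0.347 in WT and -0.145, 0.257 and -0.466 in MSTN-KO. The groups overlapped and the means differed by 0.195 (exact permutation test, two-sided p = 0.6, and 0.9 after adjustment over 3 ratios), which is within the spread of the libraries. This difference went from 0.00722 without MSTN-KO replicate 2 to 0.369 without MSTN-KO replicate 3.

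The 2 target genes moved in opposite directions. *Ankrd1* (ENSMUSG00000024803, chromosome 19, 36111961 to 36120099, minus strand), an ankyrin repeat protein of muscle that shuttles between sarcomere and nucleus, was the highest of the 10 genes, at 274.0, 340.3 and 356.6 FPKM in WT and at 253.5, 204.7 and 186.9 FPKM in MSTN-KO. The highest MSTN-KO library lay below the lowest WT library, and the means were 324 ± 43.8 and 215 ± 34.5 FPKM (SD, n = 3 each), a ratio of 0.664. The log2 fold change was -0.59 with an SE of 0.149 and a 95% interval from -0.912 to -0.269 (limma, adjusted p = 0.0163). The call held in 14 of 17 alternatives and was lost without WT replicate 2 (-0.55, limma, adjusted p = 0.0749), without WT replicate 3 (-0.516, limma, adjusted p = 0.0599) and without MSTN-KO replicate 3 (-0.496, limma, adjusted p = 0.0648). *Ankrd1* is also a muscle gene, and it was lower in MSTN-KO as the differentiated muscle list was. Within WT, replicate 3, the lowest in all 7 genes of that list, had the highest *Ankrd1*. Whether the state of differentiation had a part in its difference was not tested.

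*Amotl2* (ENSMUSG00000032531, chromosome 9, 102716672 to 102733418, plus strand) encodes an angiomotin, a protein of cell junctions that binds YAP and keeps it out of the nucleus, and is thus both a target and an inhibitor of YAP. It was at 31.0, 29.4 and 34.2 FPKM in WT and at 63.7, 44.2 and 55.2 FPKM in MSTN-KO. The lowest MSTN-KO library stood above the highest WT library, and the means were 31.5 ± 2.46 and 54.4 ± 9.78 FPKM (SD, n = 3 each), a ratio of 1.72. The log2 fold change was 0.754 with an SE of 0.146 and a 95% interval from 0.438 to 1.07 (limma, adjusted p = 0.00388). It was the only call among the 10 genes that was kept in 17 of 17 alternatives, with log2 fold changes of 0.476 to 0.893. The log2 ratio of *Amotl2* to *Ankrd1* was -3.15, -3.53 and -3.38 in WT and -1.99, -2.21 and -1.76 in MSTN-KO, a mean difference of 1.37 given as a description, since the pair was set up as a ratio after both values were seen.

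**Figure D3:**
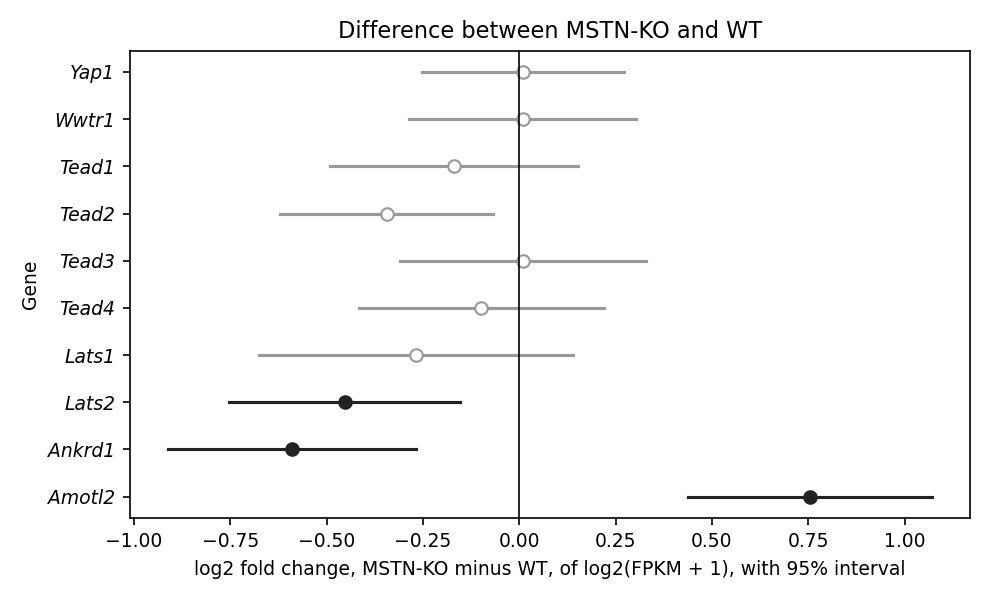
Log2 fold change, MSTN-KO minus WT, of each of the 10 genes on the log2(FPKM + 1) scale; the points are the estimates, the bars the 95% intervals from limma, and filled black points are the genes with an adjusted p under 0.05. *Lats2* and *Ankrd1* lie below 0 and *Amotl2* above it, and *Tead2* is an open point whose interval ends at -0.0682.

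**Figure D4:**
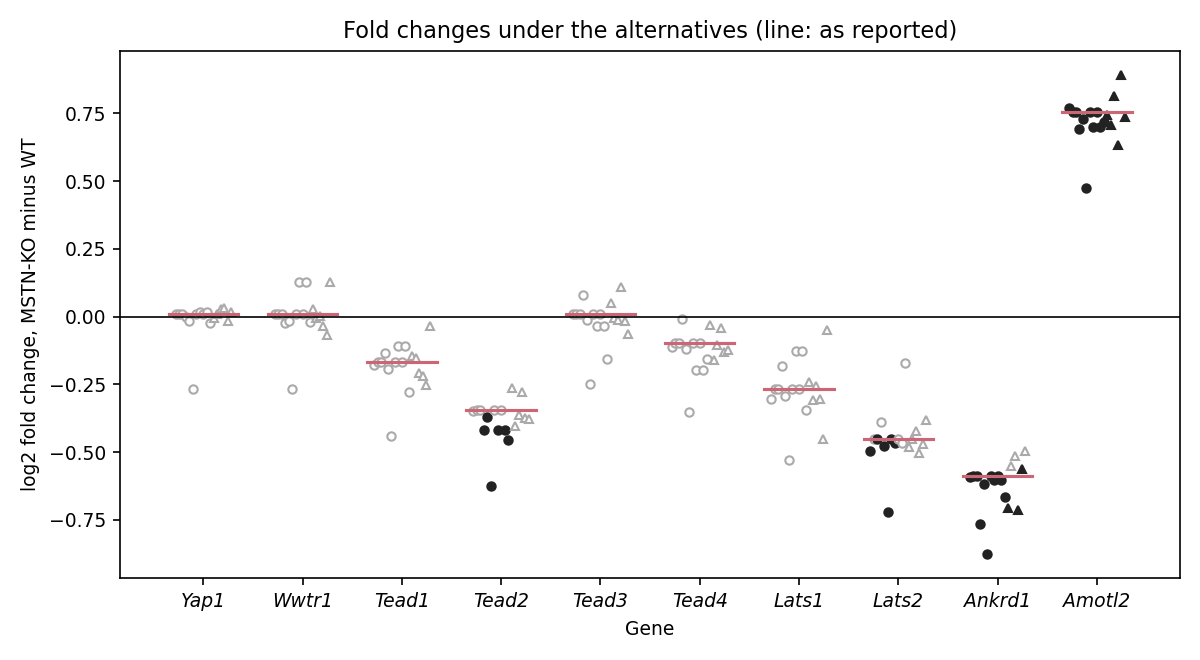
Log2 fold change, MSTN-KO minus WT, of each gene as reported (red line) and under 17 alternatives; circles are the 11 alternatives that keep all libraries, triangles the 6 that leave out 1 library, and filled symbols pass an adjusted p of 0.05. *Amotl2* is filled throughout at 0.476 to 0.893, all triangles of *Lats2* are open, and the estimates of *Yap1*, *Wwtr1* and *Tead3* lie on both sides of 0.

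Within WT the levels ran in the order *Ankrd1*, *Tead2*, *Amotl2*, *Wwtr1*, *Yap1*, *Tead1*, *Lats2*, *Lats1*, *Tead3* and *Tead4*, and no neighbours in this order overlapped over the 3 libraries. In MSTN-KO *Amotl2* stood second, where it overlapped with *Tead2*, and *Tead3* stood above *Lats2* and *Lats1*. There the neighbours *Wwtr1* and *Yap1*, *Tead3* and *Lats2*, *Lats2* and *Lats1*, and *Lats1* and *Tead4* overlapped as well. FPKM is scaled per length, but the lengths that the authors used are not known. The order of neighbours with close values is therefore uncertain, such as *Lats1* (lowest 8.18 FPKM) and *Tead3* (highest 8.13 FPKM) in WT. The value with the fewest estimated fragments, one of *Tead4*, rested on 76.1 fragments per kb of transcript, for which counting error alone is 11.5% over 1 kb, so counting limits the low genes more than *Ankrd1*, with at least 3360.

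Upstream of LATS, 25 of 27 listed Hippo genes were measured and 22 tested, and 1 fell, 1 rose and 20 were not called, where 8.96% of all genes tested were called lower and 8.78% higher. The median log2 fold change was -0.101, against -0.000781 over all genes. *Map4k4*, a kinase that activates LATS in parallel to the MST kinases, was at 82.5, 80.3 and 73.7 FPKM in WT and at 47.7, 47.8 and 39.5 FPKM in MSTN-KO. All MSTN-KO libraries lay well below WT, and the log2 fold change of -0.799 (SE 0.126, limma, adjusted p = 0.000989) was called in 17 of 17 alternatives. Its chromosome 1 had a median of -0.253 over 627 genes. *Fat4*, a giant cadherin that signals to the pathway, was at 0.163, 0.107 and 0.104 FPKM in WT and at 1.64, 1.24 and 0.804 FPKM in MSTN-KO, without overlap (log2 fold change 0.97, SE 0.186, limma, adjusted p = 0.00361). It is named although its mean lies under 1 FPKM, after its values were seen, and it entered the test only through MSTN-KO libraries.

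The MST kinases and their partners were not called, although *Stk3* was called lower without MSTN-KO replicate 2 and *Nf2* with libraries scaled to the same sum. *Stk4* (MST1) had a mean of 7.41 ± 0.576 FPKM in WT and 6.91 ± 0.798 FPKM in MSTN-KO, and the adaptor *Sav1* 26.5 ± 1.44 and 25.4 ± 0.996 FPKM (SD, n = 3 each). *Stk3* (MST2) was at 7.67, 7.26 and 9.21 FPKM in WT and at 5.36, 8.42 and 3.52 FPKM in MSTN-KO. As for *Lats1*, its highest MSTN-KO value was that of replicate 2 and its lowest that of replicate 3 (log2 fold change -0.478, SE 0.224, limma, adjusted p = 0.158). *Nf2*, the membrane-bound activator of LATS known as merlin, had a log2 fold change of -0.111 with a 95% interval from -0.392 to 0.17 (limma, adjusted p = 0.589). The other angiomotins did not share the call of *Amotl2*, with log2 fold changes of -0.31 for *Amotl1* (limma, adjusted p = 0.191) and -0.0357 for *Amot* (limma, adjusted p = 0.913).

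Among 10 genes whose products oppose LATS or the MST kinases, the LIM-domain proteins and the STRIPAK phosphatase complex, 3 fell, 0 rose (0 also at an unadjusted p under 0.05) and 7 were not called, in limma at an adjusted p under 0.05, beside 8.96% lower and 8.78% higher over all genes. The median log2 fold change was -0.296, against -0.000781 over all genes. *Wtip*, a LIM protein of the Ajuba family that binds LATS, had the largest difference of the Hippo lists, at 14.9, 14.2 and 10.6 FPKM in WT and at 0.367, 0.305 and 0.271 FPKM in MSTN-KO. The gene was nearly silent in every MSTN-KO library, with a log2 fold change of -3.42 on the log2(FPKM + 1) scale (SE 0.167, limma, adjusted p = 3.76e-08), and it was called in 17 of 17 alternatives. *Wtip* entered the test only through WT libraries. Its relatives *Ajuba*, at 24.0 ± 2.62 and 18.9 ± 1.14 FPKM, and *Limd1*, at 13.3 ± 0.436 and 12.8 ± 0.313 FPKM in WT and MSTN-KO (SD, n = 3 each), were not called.

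The other 2 genes of this list that fell belong to STRIPAK. *Slmap*, its membrane-anchoring subunit, was at 8.69, 10.9 and 10.9 FPKM in WT and at 5.69, 7.21 and 4.06 FPKM in MSTN-KO (log2 fold change -0.767, SE 0.183, limma, adjusted p = 0.0125). The groups did not overlap, but the call was lost without a filter on low values (limma, adjusted p = 0.0537), without WT replicate 2 (limma, adjusted p = 0.0541) and with the median of its chromosome 14 subtracted (-0.484, limma, adjusted p = 0.0978). *Mob4* was at 10.6, 11.4 and 13.6 FPKM in WT and at 7.85, 9.93 and 4.96 FPKM in MSTN-KO, with the lowest value in replicate 3 (log2 fold change -0.621, SE 0.201, limma, adjusted p = 0.049). Its call was lost in 12 of 17 alternatives, among them every fit without 1 library (limma, adjusted p 0.0766 to 0.155) except that without MSTN-KO replicate 2 (limma, adjusted p = 0.00893). The log2 fold change was -0.38 without MSTN-KO replicate 3 and -0.37 with the median of its chromosome 1 subtracted (limma, adjusted p = 0.232). Of the 8 genes for YAP/TAZ turnover and other TEAD partners, 7 were tested and 1 rose: *Vgll2*, a muscle cofactor that binds TEAD factors. In the other direction 0 were called lower in limma (1, *Vgll3*, at an unadjusted p under 0.05). Over all genes tested, 8.96% were called lower and 8.78% higher, so 1 of 7 called higher is near that share.

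*Vgll2* was at 30.0, 27.3 and 20.5 FPKM in WT and at 39.2, 39.0 and 45.5 FPKM in MSTN-KO. All MSTN-KO libraries were above WT, with a log2 fold change of 0.661 (SE 0.152, limma, adjusted p = 0.00986), which was lost only when every library was scaled to the same sum of 1000000 (0.386, limma, adjusted p = 0.0808). Its relatives were not called: *Vgll3* had means of 11.1 ± 0.357 and 8.57 ± 1.58 FPKM and *Vgll4* of 13.9 ± 1.88 and 12.9 ± 1.74 FPKM in WT and MSTN-KO (SD, n = 3 each).

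The YAP/TAZ target genes outside the 10 did not move one way. Of 20 listed and measured, 18 were tested, and 4 fell (*Igfbp3*, *Tgfb2*, *Nuak2*, *Ccdc80*), 3 rose (*F3*, *Ccn1*, *Foxf2*) and 11 were not called, in limma at an adjusted p under 0.05, beside 8.96% lower and 8.78% higher over all genes. With a filter on a mean of 1 FPKM, which removes *Igfbp3*, 3 fell and 3 rose. As many had a log2 fold change below 0 as above, 9 each, and the median was -0.0099, against -0.000781 over all genes. The TEAD core lay in the promoters of 5 of the 13 target genes with a promoter entry (38.5%), and in 4 of 23 of the upstream genes (17.4%). Over all genes with an entry it lay in 4481 of 27025 (16.6%), so the share of the upstream genes is near the background.

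*Ccn1* (CYR61) and *Ccn2* (CTGF), secreted matrix-associated proteins and the standard readouts of YAP activity, differed in their values. *Ccn1* was at 169.0, 142.3 and 188.3 FPKM in WT and at 339.2, 276.7 and 325.0 FPKM in MSTN-KO. The groups stood far apart, with a ratio of means of 1.88 and a log2 fold change of 0.913 (SE 0.139, limma, adjusted p = 0.000741), called in 17 of 17 alternatives. *Ccn2* was at 111.1, 99.8 and 93.6 FPKM in WT and at 97.9, 130.0 and 111.7 FPKM in MSTN-KO. The groups overlapped, with a log2 fold change of 0.15 and a 95% interval from -0.142 to 0.442 (limma, adjusted p = 0.466), and the sign turned when libraries were scaled to the same sum. The log2 ratio of *Ccn1* to *Ccn2* was 0.605, 0.511 and 1.01 in WT and 1.79, 1.09 and 1.54 in MSTN-KO, a mean difference of 0.766 computed after the values were seen.

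*F3*, tissue factor, the starter of blood coagulation, was at 2.3, 3.82 and 1.77 FPKM in WT and at 35.6, 21.4 and 20.7 FPKM in MSTN-KO. This was the largest rise among the targets, with a log2 fold change of 2.88 (SE 0.23, limma, adjusted p = 2.55e-06). *Foxf2*, a forkhead factor of mesenchyme, rose from 1.68, 1.57 and 2.33 FPKM to 4.02, 3.43 and 3.6 FPKM (log2 fold change 0.718, limma, adjusted p = 0.00979), a call that was lost without WT replicate 2 (limma, adjusted p = 0.0589) and with libraries scaled to the same sum (limma, adjusted p = 0.0501). *Axl*, a receptor kinase at a level close to that of *Ccn1* in WT, was at 143.1, 120.0 and 130.3 FPKM in WT and at 139.9, 155.2 and 159.3 FPKM in MSTN-KO and was not called (limma, adjusted p = 0.258).

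Among the targets that fell, *Tgfb2*, a secreted growth factor of the TGF-beta family, was at 5.22, 4.41 and 4.79 FPKM in WT and at 2.36, 2.93 and 1.83 FPKM in MSTN-KO (log2 fold change -0.795, SE 0.167, limma, adjusted p = 0.00596). Its groups did not overlap, and the call was kept in 17 of 17 alternatives. *Nuak2*, a kinase related to AMPK, fell from 7.4, 6.98 and 6.18 FPKM to 3.58, 3.46 and 4.47 FPKM (log2 fold change -0.702, limma, adjusted p = 0.00752), a call lost with chromosome medians subtracted (-0.451, limma, adjusted p = 0.0744). *Ccdc80*, a secreted matrix protein, fell from 35.4, 36.5 and 26.7 FPKM to 19.6, 24.5 and 17.7 FPKM (log2 fold change -0.648, limma, adjusted p = 0.0145). Leaving out WT replicate 1, WT replicate 2 or MSTN-KO replicate 3 ended this call (limma, adjusted p 0.0617 to 0.0758). *Igfbp3*, a binding protein of insulin-like growth factors, was at 1.38, 1.37 and 1.26 FPKM in WT and listed at 0 in all 3 MSTN-KO libraries (limma, adjusted p = 0.000264). It is named after its values were seen, since its mean lies under 1 FPKM, and it entered the test only through WT.

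**Figure D5:**
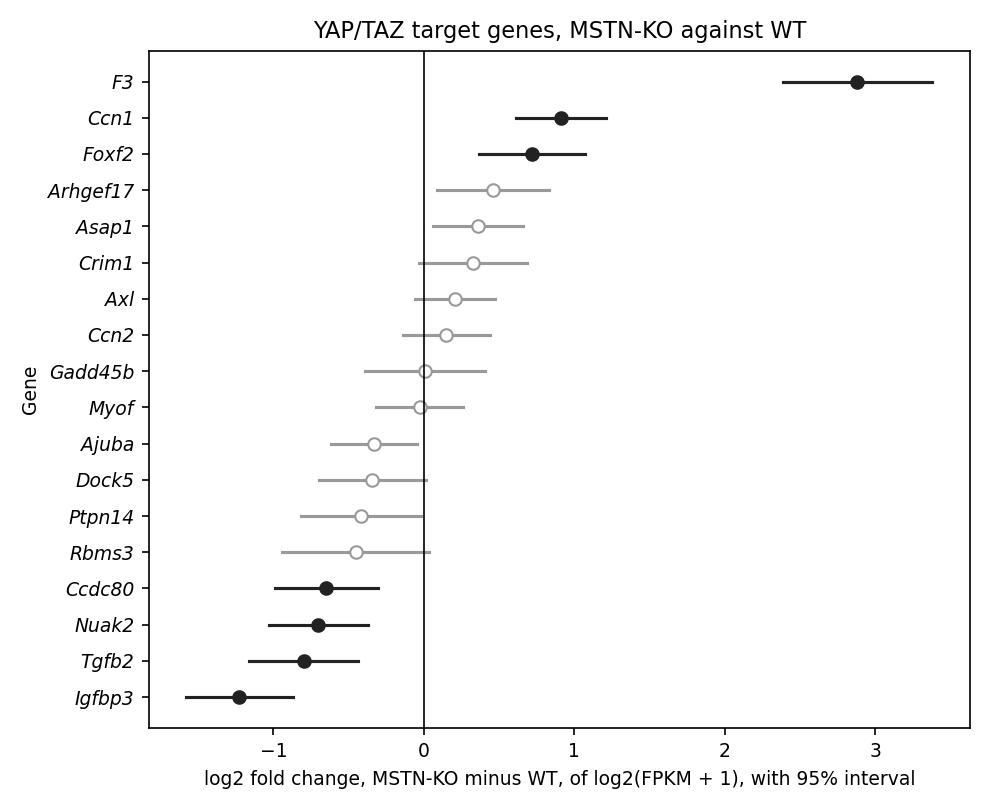
Log2 fold change, MSTN-KO minus WT, of the 18 tested YAP/TAZ target genes outside the 10 on the log2(FPKM + 1) scale, sorted by value; the bars are 95% intervals from limma and filled points have an adjusted p under 0.05. *F3*, *Ccn1* and *Foxf2* are filled above 0, *Ccdc80*, *Nuak2*, *Tgfb2* and *Igfbp3* are filled below it, and 11 genes lie between.

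Of the muscle genes with a known M-CAT element, *Tnnt2* fell and *Acta2* rose, the latter with a call that depended on the scaling. *Tnnt2*, cardiac troponin T, whose promoter is the textbook example of the element, was at 60.6, 85.0 and 70.8 FPKM in WT and at 13.3, 16.8 and 16.6 FPKM in MSTN-KO. No MSTN-KO library came near WT (log2 fold change -2.14, SE 0.151, limma, adjusted p = 9.85e-07). *Acta2*, smooth muscle actin, was at 1125.8, 1115.2 and 1136.8 FPKM in WT and at 1537.3, 1353.3 and 1798.2 FPKM in MSTN-KO, also without overlap (log2 fold change 0.463, SE 0.14, limma, adjusted p = 0.0372), but its call was lost in 9 of 17 alternatives, including each fit without 1 library (limma, adjusted p 0.0666 to 0.148) other than that without MSTN-KO replicate 2. The difference itself shrank to a log2 fold change of 0.0534 under quantile normalization (limma, adjusted p = 0.655) and to 0.177 with libraries scaled to the same sum (limma, adjusted p = 0.133). Beside these, the muscle regulator *Myod1* fell from 167.5, 141.7 and 125.9 FPKM to 93.8, 90.8 and 103.6 FPKM (limma, adjusted p = 0.00986), and *Myog* was at 175.3, 147.6 and 47.3 FPKM in WT and at 7.33, 10.2 and 11.6 FPKM in MSTN-KO. The part of muscle differentiation in the levels of *Tnnt2* and *Ankrd1* was not tested.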

How the data were processed

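RNA-seq of 3 WT and 3 MSTN-KO libraries was analysed, grouped by the genotype in the labels. The authors sequenced on an Illumina HiSeq instrument and deposited FPKM values per gene, with 1 library per file and no pooling. The submitters' processing notes name Bowtie 0.12.2 and the genome build mm8, without role or order. Annotation, counting strand and filters are not given in the sources used here. Identifiers were matched to GENCODE M21 (GRCm38), which gave 14445 of 14548 genes a symbol, length and GC content. Its positions enter the chromosome medians, and its gene models the lengths. FPKM scales by the library's own total, so that very abundant genes push down the values of the rest.

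The log2(FPKM + 1) values were fitted with limma 3.58.1 (R 4.3.3) for the 10837 genes that reached 1 FPKM in some library (eBayes with a trend, group as the only term), and p-values were adjusted by Benjamini-Hochberg over all of them at 0.05. A fold change on this scale understates the change of low genes. Permutation tests were exact, over every way to split the 6 libraries. The fit was tested on simulated data with known changes. There 97.5% of 200 changed genes were recovered, at a median estimated log2 fold change of 1.99 in size. All differences among the 10 genes were smaller than this, and recovery at their size was not tested. The files hold no counts. From the smallest steps between low FPKM values and GENCODE lengths, depth was put at roughly 14300000 to 18800000 fragments per library. FPKM multiplied by these lengths summed to 2076008 to 2593326, not 1000000 as with the authors' own lengths and totals, so the estimate is rough. The reason for the excess was not tested. It covers counting error only.

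The 10 genes and the lists were chosen with earlier results of these data known. Named outside the 10 by rule were, from each Hippo list, up to 4 called genes with the largest rise and up to 4 with the largest fall at a mean of at least 1 FPKM, the M-CAT genes, the markers, *Ccn1* and *Ccn2*. The other genes named (*Fat4*, *Igfbp3*, *Axl*, relatives of genes described, upstream genes not called and genes under the filter) were picked after their values were seen. *Ajuba* and *Ptpn14* sit in 2 lists. *Mob1b*, *Taok2*, *Vgll1* and *Acta1* were not analysed here. As alternatives, the pseudocount was set to 0.1, the filter was dropped or set on the mean, libraries were quantile normalized or scaled to a sum of 1000000 or by their percentile 75, the trend was dropped, length and GC content were corrected for with mgcv 1.9.3, replicate numbers were used as a block (alone or with that correction), chromosome medians were subtracted, and each library was left out. Python 3.11.15, pandas 2.3.3, numpy 2.4.6, matplotlib 3.10.9 and scipy 1.17.1 were used for the rest.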

Additional observations from a re-analysis of the deposited data

How the results depend on the processing

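*Amotl2*, *Map4k4*, *Wtip*, *Ccn1*, *F3*, *Tgfb2* and *Tnnt2* kept direction and call in all 17 alternatives. Where a result changed, the cause was not tested, beyond the fewer libraries of the fits that left one out. Of the 10 genes, 2 were called lower as reported. This count was 3, with *Tead2*, scaled by the percentile 75, scaled to a sum of 1000000 and with the length and GC correction. It was 1 without a filter on low values, and 0 to 1 when a library was left out (0 in limma, and 3 at an unadjusted p under 0.05, without WT replicate 2, WT replicate 3 or MSTN-KO replicate 3). The count called higher was 1 in all 17 alternatives. Upstream Hippo genes called lower were 1 as reported, 2 without a filter, 3 with libraries scaled to a sum of 1000000, 2 with the length and GC correction, and 1 to 3 when a library was left out (3 without MSTN-KO replicate 2, with *Stk3* and *Taok1*). Over all genes 971 were called lower and 952 higher as reported, and 2367 and 350 scaled to the sum. These counts were 1048 and 904 scaled by the percentile 75, and 1344 and 1212 with the length and GC correction. Without a filter they were 906 and 720 of 14548 genes. When a library was left out, they ran from 611 and 419 (without WT replicate 2) to 1233 and 1175 (without MSTN-KO replicate 2). The 1 upstream gene called higher, *Fat4*, became 0 under a filter on a mean of 1 FPKM, which removes it from the test. YAP/TAZ targets called lower and higher were 4 and 3 as reported, and 3 to 5 and 2 to 4 when a library was left out. With the length and GC correction 6 were called lower and 5 higher, and scaled to the sum 6 and 2. The *Tead4* share differed by 1.46 percentage points under quantile normalization, and by 0.655 to 0.848 when a library was left out.

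The replicate numbers did not pair the libraries: same-numbered deviations correlated at -0.0153, -0.128 and -0.142. With the replicate number as a block, 1 of the 10 genes (*Ankrd1*) was called lower and 1 higher, *Lats2* had an adjusted p of 0.0736 in limma, and 1940 genes were called over all, against 1923 without. With the block and the length and GC correction together, 5 targets were called lower and 5 higher, and over all genes 1255 and 1157.

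The sign turned for values near 0. *Yap1* was at -0.0005 under quantile normalization, -0.0156 scaled by the percentile 75, -0.266 scaled to a sum of 1000000, -0.0232 with chromosome medians subtracted, and -0.0158 to 0.0313 when a library was left out (-0.0052 without WT replicate 1). *Wwtr1* was at -0.0221, -0.0174, -0.268 and -0.0191 under the same 4, and at -0.0669 to 0.126 when a library was left out (-0.0036 without WT replicate 2, -0.033 without MSTN-KO replicate 1). *Tead3* was at -0.0143 scaled by the percentile 75, -0.249 scaled to the sum, -0.0349 with the length and GC correction, with or without the block, -0.155 with chromosome medians subtracted, and -0.0636 to 0.111 when a library was left out (-0.0067, -0.0138 and -0.0177 without WT replicate 2, WT replicate 3 and MSTN-KO replicate 2). *Ccn2* was at -0.134 scaled to the sum. That scaling moved the median of all genes to -0.256, and the values above are to be read relative to it.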

Other observations

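Some listed genes lay under 1 FPKM in every library and were left out of the test. *Nt5e*, a cell-surface nucleotidase and YAP/TAZ target, was at 0.619, 0.533 and 0.736 FPKM in WT and at 0.0146, 0.122 and 0.0997 FPKM in MSTN-KO, and *Tnik*, a MAP4K kinase, at 0.451, 0.31 and 0.289 FPKM against 0.0773, 0.104 and 0.0359 FPKM. Neither overlapped between the groups. *Fjx1*, another target, was at 0.196, 0.205 and 0.0554 FPKM in WT and listed at 0 in all MSTN-KO libraries. *Myh7*, the slow myosin heavy chain whose promoter holds M-CAT elements, was at 0.669, 0.925 and 0.293 FPKM in WT and at 0.00764, 0.0444 and 0.0343 FPKM in MSTN-KO. *Dchs1*, the partner cadherin of *Fat4*, was at or under 0.031 FPKM in every library, where *Fat4* was called higher in MSTN-KO. *Map4k1*, like *Tnik* a MAP4K kinase, was at 0.279, 0.164 and 0.236 FPKM in WT. In MSTN-KO it was at 0.25, 0.158 and 0.412 FPKM, and its groups overlapped.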
